A study of Mus musculus with 4 samples.

Results

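The nuclear genes that encode the respiratory chain were followed in thymocytes of mice with a hypomorphic Atg16l1 allele, complex by complex. Members were the genes whose symbols begin with Ndufa, Ndufb, Ndufc, Ndufs, Ndufv, Uqcr, Cox4, Cox5, Cox6, Cox7, Cox8 or Atp5, together with Sdha, Sdhb, Sdhc, Sdhd, Cyc1 and Cycs, while the Ndufaf assembly factors were left out. The rule found 84 genes among the 18193 that the arrays name by a single symbol, and 174 of 34945 probe sets. Complex I had 36 of these genes, complex II 4, complex III 9, complex IV 17 and complex V 17, and Cycs stood alone as the mobile carrier between complexes III and IV. Each gene was read from its probe set with the brightest mean over the 4 arrays, a choice that does not use the difference between groups.

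The samples were total RNA of unsorted thymocytes from 2 Atg16l1 hypomorph mice and 2 control mice, each animal on its own Affymetrix array. All animals were 7 weeks old and independent of each other, with 1 male and 1 female in each group, and the labels do not tie a sex to an array. The hypomorph allele leaves Atg16l1, which directs the lipidation of LC3 proteins on the forming autophagosome, with reduced function. The labels give the controls as wild type and state neither strain nor how the allele was made.

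Complexes I and II pass electrons from NADH and succinate to ubiquinone, complex III passes them on to cytochrome c, and complex IV hands them to oxygen. The proton gradient built by complexes I, III and IV drives ATP synthesis by complex V. Most subunits are encoded in the nucleus and a small set in mitochondrial DNA, and mitochondria are themselves cargo of autophagy.

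The arrays carried the label check and 1 shift that touches every value below. The Atg16l1 probe set read 108 and 70.8 in hypomorphs, against 184 and 241 in controls, a log2 change of -1.57 ± 0.18 (SE, n = 2 arrays each, adjusted p = 0.0142, limma). The median signal per array was 38.4 and 27.4 for hypomorphs, against 23.5 and 27.4 for controls, highest on hypomorph replicate 1, so the deposited signals quoted here were centred per array before any change was computed. Centring left a median log2 change of 0.21 over the 10232 tested genes, and changes are therefore also given relative to that median. The p-values test against a log2 change of 0, so the shift enters them. Markers of thymocytes had a median relative change of -0.05 over 9 tested genes, while all 5 B cell markers, all 7 dendritic cell and MHC class II markers and all 7 macrophage markers lay below the tested median (medians of -0.69, -0.41 and -0.52). The summed centred signal of 6 granulocyte markers was 2178 and 3679 on the hypomorph arrays, against 652 and 5771 on the control arrays, lowest on control replicate 1. In such bulk samples fewer cells of a type and less RNA per cell cannot be told apart, and the part of these cells in the results below was not tested.

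Across the chain the transcripts lay close to the median of the tested genes. Of the 84 genes, 78 passed the filter on dim probe sets, and none of them was called after adjustment in limma, against 0.0489% of all tested genes and 0.0622% of all tested probe sets. Before adjustment 23 of the 78 were higher in hypomorph thymocytes with p under 0.05, against 18.3% of all tested genes, and 0 were lower, against 0.909%. The centred values of the groups did not overlap and were higher in the hypomorphs for 51 members, against 51.7% of all tested genes, and were lower for none, against 4.93%. The other 27 members overlapped. In this fit the shares of members at p under 0.05 and without overlap were above those of all tested genes on the higher side. On the lower side they were below them. Members were brighter at the median than all tested genes, and the shares here and below were not matched for brightness.

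The first of these counts depended on the processing. As a share of the 78 members it fell below that of all tested genes without the variance trend and without control replicate 1. It was 5 with quantile normalization (3.42% of all genes), 5 with cyclic loess (3.47%) and 5 with centring on the tested probe sets (4.38%), which take out most of the shift. It was 6 without the variance trend (10.3%), 37 without centring (19.3%) and 35 with a larger pseudocount (24.2%). Leaving out 1 array gave 40 without hypomorph replicate 1 (17.2%), 10 without hypomorph replicate 2 (8.85%), 4 without control replicate 1 (7.81%) and 25 without control replicate 2 (20.5%). Sdhc, Ndufb2 and Cox6b2 were among the members under quantile normalization, loess and tested-set centring alike.

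The median log2 change of the 78 members was 0.25, or 0.03 relative to the tested genes, and 48 of them lay above the tested median and 30 below. The members had an interquartile width of 0.17, against 0.26 over all tested genes. Their median mean signal was 1477, against 202 for all tested genes, and the widths were not compared at matched brightness. The smallest adjusted p was 0.147, for Sdhc (limma), and the largest was 0.997, for Cox5b. By complex, the relative median was 0.08 in complex I, 0.14 in complex II, 0.06 in complex III, -0.06 in complex IV and 0.01 in complex V. That of complexes I, II and III was positive under every alternative tried, whereas that of complex IV was 0.01 with quantile normalization and 0.053 where every probe set of a gene was averaged, and that of complex V was -0.10 without hypomorph replicate 2.

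**Figure D1:**
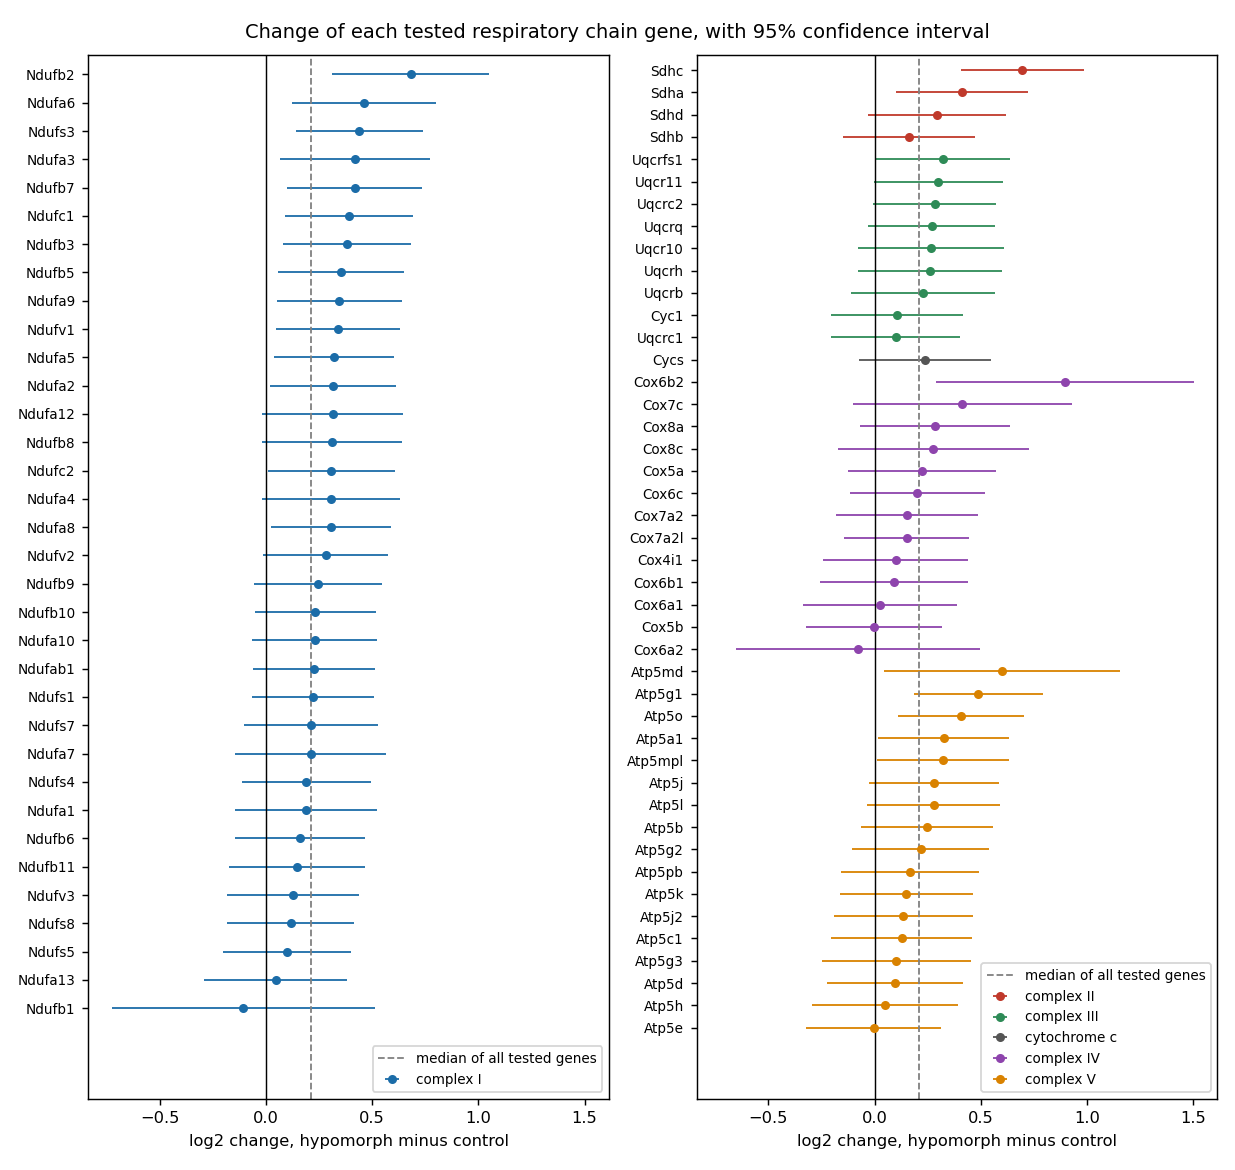
Log2 change, hypomorph minus control, of each of the 78 tested members with its 95% confidence interval, sorted by complex; the solid line is 0 and the dashed line the median of all tested genes, 0.21. Most points of complexes I, II and III lie right of the dashed line, 8 of 13 in complex IV lie left of it, and Cox6b2, Sdhc and Ndufb2 lie farthest to the right.

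Complex I, the NADH dehydrogenase and the largest assembly of the chain, had 34 tested genes, of which 23 lay above the tested median. Before adjustment 14 had p under 0.05, all higher, against 18.3% of all tested genes, and in 25 the groups did not overlap, against 51.7%. The 6 members that are core subunits, which carry the flavin and the iron-sulfur clusters or sit beside them, had log2 changes between 0.12 (Ndufs8) and 0.44 (Ndufs3), which lies within the range of the accessory subunits.

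Ndufb2, an accessory subunit of the membrane arm, stood highest in the complex. Its signals were 945 and 735 on the hypomorph arrays, against 323 and 528 on the control arrays. Both hypomorph arrays were above both controls, the log2 change was 0.68 ± 0.17 (SE), and the adjusted p was 0.197 (limma). Relative to the tested genes its change was 0.47, with 0.27 without control replicate 1 and 0.67 without control replicate 2. Over all the alternatives tried, this relative change ranged from -0.44 to 0.67, and its sign was reversed in 1 of them. The next brightest Ndufb2 probe set had a log2 change of 0.36 and a dim one of -0.22.

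Ndufa6, an accessory subunit of the LYR family, had 1547 and 1258 on the hypomorph arrays, against 659 and 986 on the control arrays, a log2 change of 0.46 (adjusted p = 0.247, limma). Ndufs3, a core subunit of the arm that reaches into the matrix, had 856 and 672 in hypomorphs, against 390 and 507 in controls, a log2 change of 0.44 (adjusted p = 0.242, limma). In both genes the groups were apart, and control replicate 1 was the lowest array. The relative change of Ndufa6, 0.25 with all arrays, came to 0.11 when control replicate 1 was left out and to 0.39 when control replicate 2 was. Ndufa3, an accessory subunit read from 3 tested probe sets, had changes of 0.42, 0.42 and -0.09, the last from a probe set with a mean signal of 38.6. The relative change of its brightest probe set, 0.21 with all arrays, came to 0.07 when control replicate 1 was left out and to 0.35 when control replicate 2 was.

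At the other end stood Ndufb1, Ndufa13 and Ndufs5, all accessory subunits. Ndufb1, whose probe set is dim, had 69.2 and 42.2 on the hypomorph arrays, against 36.8 and 57.6 on the control arrays, a log2 change of -0.11 with the groups overlapping. Ndufa13, also known as GRIM-19, had a log2 change of 0.04 and Ndufs5 of 0.10, both overlapping. Ndufa4, which carries a complex I name and is by now regarded as a subunit of complex IV, had a log2 change of 0.31. Ndufb4 was listed under a single symbol only by a probe set with a mean of 12.4, which was not tested, whereas the probe sets it shares with Ndufb4b and Ndufb4c had log2 changes of 0.29 and 0.33. Ndufa4l2, a paralog of Ndufa4, was also too dim to test, at 5.90 and 4.30 on the hypomorph arrays, against 7.41 and 19.1 on the control arrays.

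Complex II, succinate dehydrogenase, is the link to the citric acid cycle and is built from nuclear genes alone. It had the highest median of the complexes, 0.35, and 3 of its 4 genes were above the tested median. Sdhc, a membrane anchor that binds ubiquinone, had 867 and 676 on the hypomorph arrays, against 344 and 409 on the control arrays. Every hypomorph value was well above every control value, and the log2 change was 0.70 ± 0.13 (SE), 0.49 relative to the tested genes, with an unadjusted p of 0.000258 and an adjusted p of 0.147 (limma). Sdhc was the one member with an unadjusted p under 0.05 in all 17 settings, 16 alternatives included, with adjusted p between 0.0489 and 0.617 (limma). Its other tested probe set had a log2 change of 0.29, with 394 and 321 in hypomorphs, against 217 and 247 in controls.

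Sdha, the flavoprotein that oxidises succinate, had 1436 and 1242 on the hypomorph arrays, against 703 and 908 on the control arrays. Its log2 change was 0.41 (adjusted p = 0.25, limma), and its 3 tested probe sets ranged from 0.10 to 0.41. Relative to the tested genes the change of Sdha was between 0.00 and 0.28 over the alternatives tried. Sdhd, the partner anchor of Sdhc, had 673 and 529 in hypomorphs, against 325 and 461 in controls, a log2 change of 0.29 (adjusted p = 0.339, limma), and its dimmer probe set had a log2 change of 0.57. Sdhb, the iron-sulfur subunit, had 2405 and 1906 in hypomorphs, against 1304 and 1779 in controls. After centring, the Sdhb groups overlapped and its change of 0.16 was just below the tested median, unlike those of the other subunits.

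**Figure D2:**
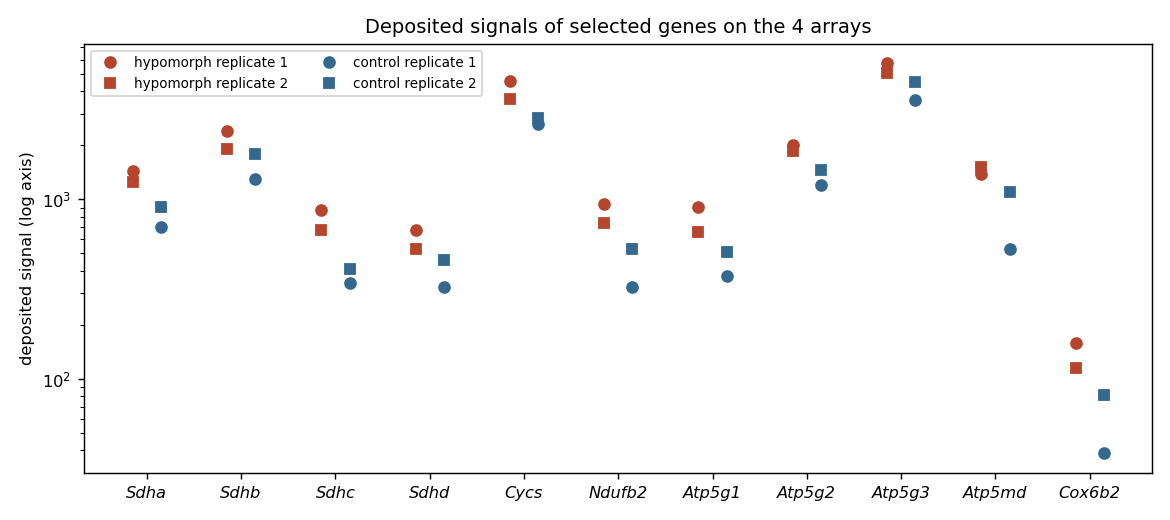
Deposited signal, before centring, of 11 members on each array on a log axis, with hypomorph arrays left of control arrays and circles and squares for replicates 1 and 2. Sdhc, Ndufb2 and Cox6b2 show a wide gap between the groups, while Sdhb and Atp5g3 come close to each other.

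Complex III, the cytochrome bc1 complex, had all 9 of its genes tested, and 7 were above the tested median. In the same 7 the groups were apart and higher in hypomorphs, against 51.7% of all tested genes. Uqcrfs1, the Rieske iron-sulfur protein, had 1497 and 1113 on the hypomorph arrays, against 687 and 984 on the control arrays. Its log2 change was 0.32 (adjusted p = 0.305, limma). By brightest probe sets it was the 1 gene of these 9 with an unadjusted p under 0.05, against 18.3% of all tested genes. Uqcr11 and Uqcrc2, a small subunit and a core protein, had log2 changes of 0.30 and 0.28. The catalytic Cyc1, cytochrome c1, had a log2 change of 0.11 and the other core protein, Uqcrc1, of 0.10, both with overlapping groups. Uqcrb, a small subunit near the quinone site, had 0.23. From their next brightest probe sets Uqcrb had 0.46 and Uqcrh 0.65 (unadjusted p = 0.00697 and 0.0011, adjusted p = 0.242 and 0.186, limma).

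Cycs, the soluble carrier of electrons and a trigger of apoptosis when released, had 4575 and 3600.1 on the hypomorph arrays, against 2637 and 2851 on the control arrays. The groups were apart, and the log2 change was 0.24, 0.03 relative to the tested genes (adjusted p = 0.401, limma). Its 2 dimmer tested probe sets had log2 changes of 0.36 and 0.35.

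Complex IV, cytochrome c oxidase, had 13 of its 17 genes tested, and 8 of these lay below the tested median and 5 above. The groups did not overlap in 5 genes, against 51.7% of all tested genes. Cox4i1, a broadly expressed subunit, had 5652 and 4984 on the hypomorph arrays, against 3631 and 4289 on the control arrays, a log2 change of 0.10. The log2 change was 0.03 for Cox6a1, 0.09 for Cox6b1, 0.15 for Cox7a2 and -0.00 for Cox5b, all with overlapping groups. These came from the brightest probe sets, and the next brightest had 0.30, 0.20, 0.35 and 0.12 in that order. The 5 tested probe sets of Cox5b reached up to 0.39. Hypomorph replicate 1 was the low array for the complex, where the median member was 0.14 below its own mean after the shift of the tested genes was taken out.

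Several subunits of complex IV exist as isoforms known for particular tissues. Cox6b2, the testis isoform of Cox6b1, had 158 and 115 on the hypomorph arrays, against 38.5 and 81.7 on the control arrays. The groups were apart, with both hypomorph arrays almost level after centring and control replicate 1 far down, and the log2 change was 0.90 ± 0.28 (SE, adjusted p = 0.242, limma), the largest of all members. The change of Cox6b2 relative to the tested genes was 0.69 with all arrays, 0.32 without control replicate 1 and 1.05 without control replicate 2.

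Cox8c, another testis isoform, had 154 and 98.5 in hypomorphs, against 71.1 and 90.4 in controls, a log2 change of 0.28, like its ubiquitous paralog Cox8a at 0.28. Cox6a2, the isoform of heart and skeletal muscle, had 66.4 and 64.1 in hypomorphs, against 52.9 and 56.1 in controls, a log2 change of -0.08. The muscle isoforms Cox7a1 and Cox8b, the lung isoform Cox4i2 and the testis isoform Cox7b2 were too dim to test, and Cox7a1 had 40.5 and 27.7 on the hypomorph arrays, against 9.43 and 29.0 on the control arrays. Cox7c had 190 and 234 in hypomorphs, against 123 and 127 in controls, a log2 change of 0.41 with overlapping groups. Its relative change, 0.20 with all arrays, was -0.13 without hypomorph replicate 2 and 0.53 without hypomorph replicate 1.

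**Figure D3:**
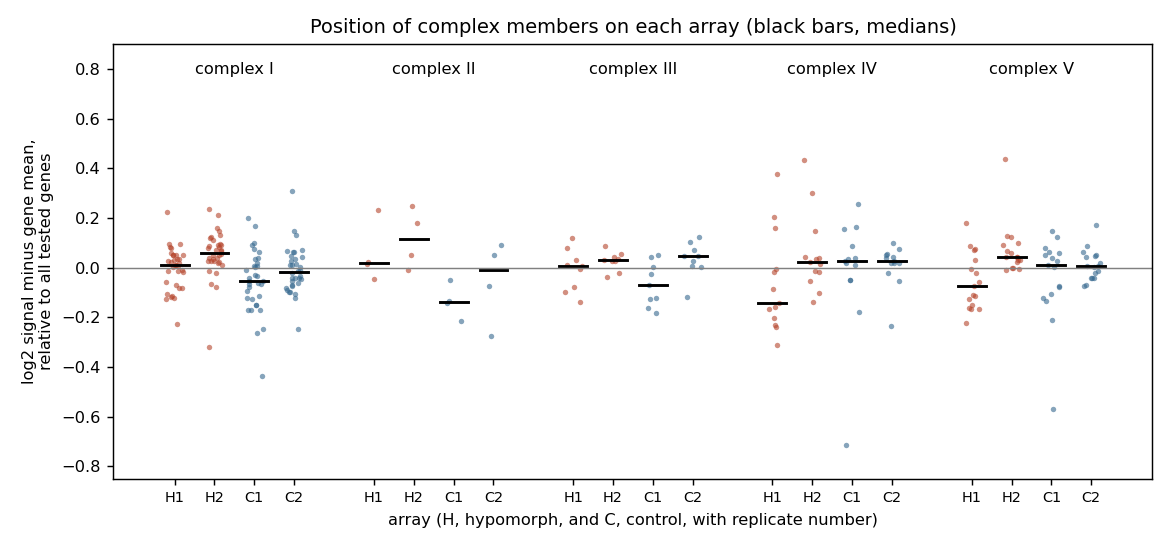
Position of every tested member of complexes I to V on each array, with Cycs not drawn. Values are log2 signal minus the gene's mean over the arrays and minus the median of all tested genes on that array. Hypomorph arrays (H) stand left of control arrays (C), with black bars for medians. The complex I medians are 0.01 and 0.06 in hypomorphs, against -0.05 and -0.02 in controls, and the complex IV median is lowest on hypomorph replicate 1, at -0.14.

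Complex V, the ATP synthase, had all 17 of its genes tested, 9 above and 8 below the tested median. Before adjustment 5 had p under 0.05, all higher, against 18.3% of all tested genes, and the groups did not overlap in 10, against 51.7%, a share near that of all tested genes. Atp5md, a small membrane subunit known as DAPIT, had 1389.7 and 1509.8 on the hypomorph arrays, against 527 and 1094 on the control arrays, a log2 change of 0.60 (adjusted p = 0.292, limma). After centring, hypomorph replicate 1 lay below control replicate 2, so the groups overlapped. Relative to the tested genes the change of Atp5md was 0.39, with a range of 0.02 (without control replicate 1) to 0.76 (without control replicate 2) when 1 array was left out. Atp5o, which ties the catalytic head to the stator, had a log2 change of 0.41 with groups apart (adjusted p = 0.247, limma). The lowest changes belonged to Atp5e, Atp5h and Atp5d, at -0.00, 0.05 and 0.09, all overlapping.

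The c subunit, which forms the rotating ring in the membrane, is encoded by 3 genes that give the same mature protein. Atp5g1 had 904 and 655 on the hypomorph arrays, against 373 and 509 on the control arrays, with the groups apart and a log2 change of 0.49 (unadjusted p = 0.00479, adjusted p = 0.230, limma). Atp5g2 had 2018 and 1848 in hypomorphs, against 1202 and 1454 in controls, a log2 change of 0.22. Atp5g3 had 5703 and 5073 in hypomorphs, against 3555 and 4480.2 in controls, a log2 change of 0.10, with overlapping groups. Relative to the tested genes the changes were 0.28, 0.01 and -0.11 in that order, and the difference between the genes was not tested. Over the alternatives tried, these ranged from -0.15 to 0.35, from -0.12 to 0.38 and from -0.21 to -0.01. The next brightest probe set of Atp5g2, with a mean signal of 48.3, had a log2 change of 0.34.

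Nuclear respiratory chain genes are known for promoters with sites of NRF1, of the ETS factor GABPA and of YY1. Their motifs were searched on both strands in RefSeq promoters of GRCm38.p6, 250 bases before to 50 after the start, which held 68 of the 84 members. The NRF1 motif GCGCANGCG was in 19 of the 68 (27.9%), against 7.03% of all 27025 genes with a promoter. The GABPA motif CCGGAAG was in 17 (25%), against 9.93%, and the YY1 motif AAGATGGCG was in 6 (8.82%), against 1.64%. No matches of different motifs shared bases, and in 4 genes an NRF1 match read on both strands. Complex V held the NRF1 motif in 7 of 15 genes, complex I in 6 of 32 and complex IV in 1 of 12.

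The windows of 150 bases before the start are shown for members described above, because they set genes with several matches beside genes with none. They read 5′ to 3′ on the strand of the gene, with matches to NRF1, GABPA or YY1 in capitals.
Sdha, minus strand, chr13:74350241-74350390: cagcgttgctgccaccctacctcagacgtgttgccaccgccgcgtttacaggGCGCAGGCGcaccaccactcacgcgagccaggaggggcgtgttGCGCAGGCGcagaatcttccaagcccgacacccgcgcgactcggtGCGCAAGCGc
Sdhd, minus strand, chr9:50603850-50603999: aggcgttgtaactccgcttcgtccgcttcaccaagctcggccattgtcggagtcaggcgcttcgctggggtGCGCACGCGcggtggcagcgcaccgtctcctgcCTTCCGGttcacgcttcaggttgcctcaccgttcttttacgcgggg
Cycs, minus strand, chr6:50566570-50566719: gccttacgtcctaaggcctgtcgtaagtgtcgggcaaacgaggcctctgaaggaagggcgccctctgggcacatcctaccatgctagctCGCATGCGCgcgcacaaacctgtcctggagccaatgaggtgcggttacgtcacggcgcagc
Atp5g2, minus strand, chr15:102671048-102671197: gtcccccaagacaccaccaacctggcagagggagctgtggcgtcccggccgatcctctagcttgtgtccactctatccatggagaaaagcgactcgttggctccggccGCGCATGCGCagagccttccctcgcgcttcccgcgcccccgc
Atp5g1, minus strand, chr11:96075632-96075781: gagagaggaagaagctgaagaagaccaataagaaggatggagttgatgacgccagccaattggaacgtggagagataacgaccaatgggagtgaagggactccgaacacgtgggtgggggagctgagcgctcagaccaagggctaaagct
Ndufb2, plus strand, chr6:39592415-39592564: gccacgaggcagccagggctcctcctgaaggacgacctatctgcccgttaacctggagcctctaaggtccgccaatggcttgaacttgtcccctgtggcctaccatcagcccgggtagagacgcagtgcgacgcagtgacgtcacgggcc

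Sdha held 3 NRF1 matches, Sdhd 1 of NRF1 and 1 of GABPA, and Atp5g2 a match that reads on both strands. Atp5g1 and Ndufb2, with larger changes than Atp5g2 by their brightest probe sets, held no match in the whole promoter. Tested members with an NRF1 match had a median relative change of 0.02 (n = 18) and those without one of 0.04 (n = 46). For GABPA the medians were 0.05 with a match (n = 17) and 0.03 without (n = 47), and for YY1 0.03 with (n = 6) and 0.03 without (n = 58).

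The change also differed with the brightness of the probe set, though not in 1 direction. Over all tested genes the median log2 change was 0.11 at mean signals below 100, 0.24 at 100 to 500, 0.25 at 500 to 1000, 0.22 at 1000 to 2000, 0.17 at 2000 to 4000 and 0.01 at 4000 and above. The 3 members below 100 had a median of -0.08, and at the bright end members had medians of 0.30 at 1000 to 2000 (n = 29), 0.19 at 2000 to 4000 (n = 17) and 0.10 at 4000 and above (n = 8). The median mean signal was 2695 for complex IV and 1127 for complex I, so the complexes also differ in brightness. How far brightness accounts for their order was not tested.

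**Figure D4:**
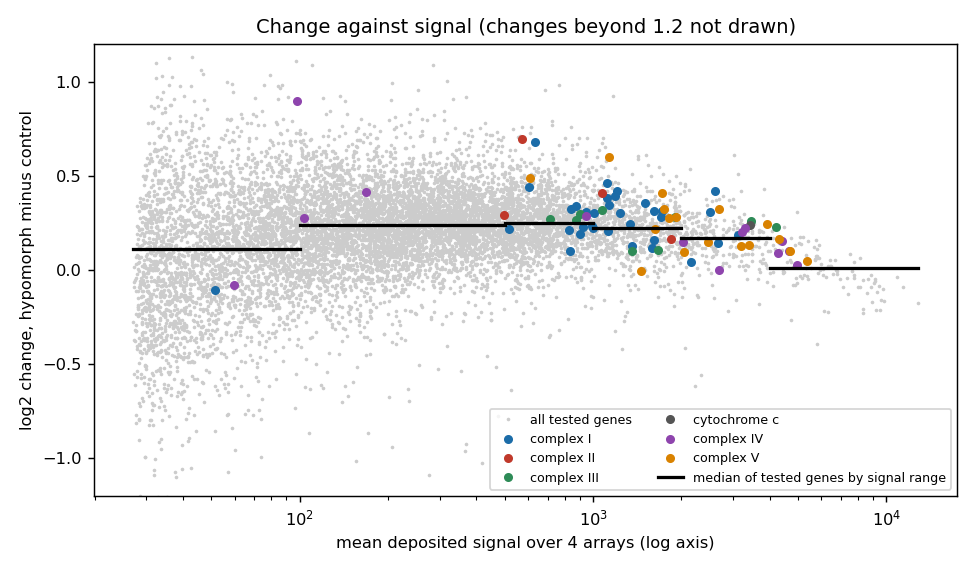
Log2 change, hypomorph minus control, against mean deposited signal on a log axis, for all tested genes (grey) and the members by complex, with black bars for the median of tested genes in each signal range. The bars drop to 0.01 at signals of 4000 and above, where 8 members lie.

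Probe sets of the same gene gave a further view of this. Of the members, 46 had more than 1 tested probe set, and the next brightest showed the higher log2 change in 32 of them, by a median of 0.06. Where the brightest had a signal of 2000 or more the next was higher in 16 of 20, by a median of 0.12, and otherwise in 16 of 26, by 0.02. Over all 4857 tested genes with more than 1 tested probe set the next was higher in 47.3%, and over the 295 bright ones in 69.5%. Uqcrh, the hinge protein of complex III, had 0.26 from its brightest and 0.65 from its next probe set, and Cox6a1 had 0.03 and 0.30. Ndufv2, a core subunit of complex I, had 0.28 from its brightest probe set and 0.77 from its dimmest, with an adjusted p of 0.10 for that one (limma).

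**Figure D5:**
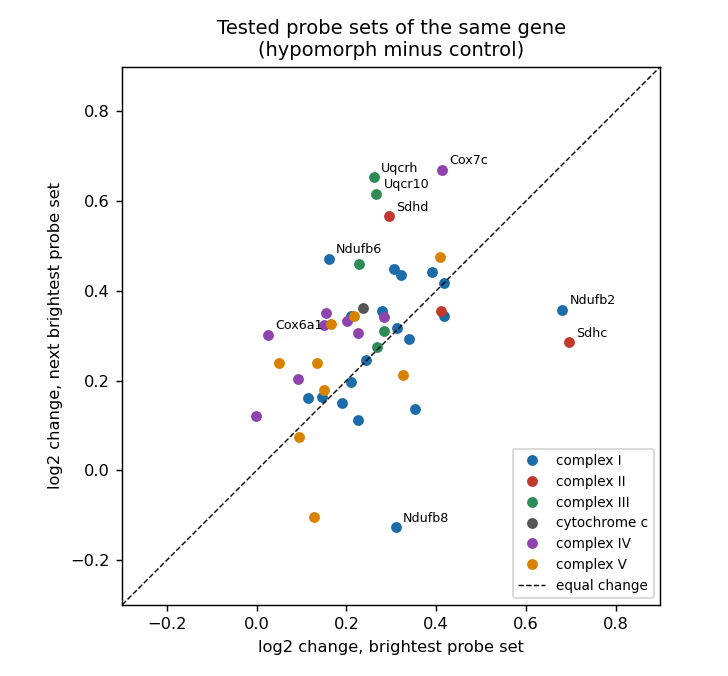
Log2 change, hypomorph minus control, of the next brightest tested probe set against that of the brightest, for the 46 members with more than 1, coloured by complex; the dashed line marks equal change. Most points lie above the line, Uqcrh and Uqcr10 far above it, and Sdhc, Ndufb2 and Ndufb8 below it.

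Of the members, 5 lie on chromosome 1 together with Atg16l1. Ndufa10, at 47 protein-coding genes from Atg16l1 the nearest of them, had 1198 and 1006 on the hypomorph arrays, against 693 and 802 on the control arrays, a log2 change of 0.23. Its other probe set, too dim to test, had 7.29 and 6.05 in hypomorphs, against 14.9 and 15.5 in controls. The log2 change was 0.22 for Ndufs1, 0.38 for Ndufb3 and -0.00 for Cox5b, at 187, 218 and 344 genes on one side, and 0.70 for Sdhc at 482 genes on the other side.

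Genes that serve the chain were read beside it. Among assembly factors, those of complex IV included 7 of 17 tested with an unadjusted p under 0.05, all higher, and a relative median of 0.09, while the subunits of that complex included 1 of 13 and all tested genes 18.3%. That share of all tested genes was 3.42% to 4.38% under the normalizations that take out most of the shift, for which the lists below were not recounted. Cox16, which takes part in the maturation of the copper site, had 545 and 297 on the hypomorph arrays, against 148 and 261 on the control arrays, a log2 change of 0.70 (adjusted p = 0.242, limma). Pet100 was the lowest of these factors at -0.11. The difference between factors and subunits was not tested.

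The assembly factors of complex I had 3 of 13 with an unadjusted p under 0.05, all higher, against 18.3% of all tested genes. Their relative median was -0.01, with Acad9 highest at 0.59 and Ndufaf3 lowest at 0.05. The counts for the other complexes below stand beside the same 18.3%. Those of complex III had 1 of 5, and Bcs1l, the chaperone that inserts the Rieske protein, was not that gene. Bcs1l was the highest of them at 0.43 (unadjusted p = 0.0622, limma), and Ttc19 the lowest at -0.30. Those of complex II had 1 of 4, with Sdhaf2, which attaches the flavin to Sdha, highest at 0.42. Among the factors of complex V 2 of 4 had an unadjusted p under 0.05, both higher, including Atpif1, the inhibitor of ATP hydrolysis, which had 1524 and 1039 on the hypomorph arrays, against 692 and 775 on the control arrays, a log2 change of 0.45 (adjusted p = 0.229, limma).

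The one mitochondrially encoded subunit on the arrays under the listed names was ND5 of complex I. It had 4158 and 3223 on the hypomorph arrays, against 2736 and 3111 on the control arrays, a log2 change of -0.00 with overlapping groups, or -0.21 relative to the tested genes. Enzymes of the citric acid cycle had a relative median of 0.11 over 12 genes, with 7 higher at an unadjusted p under 0.05, against 18.3% of all tested genes, Dlst highest at 0.46 and Cs, the citrate synthase often used as a measure of mitochondrial content, lowest at 0.11. Markers of mitochondrial mass had a relative median of 0.07 over 13 genes, with 4 higher at an unadjusted p under 0.05, against the same 18.3%, Tomm70a, an import receptor, highest at 0.47 and Tomm20, another, lowest at 0.08.

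Regulators of mitochondrial transcription and biogenesis had a relative median of 0.00 over 16 genes. At an unadjusted p under 0.05, 2 were higher, against 18.3% of all tested genes. Gabpb1, the partner of GABPA, had 539 and 343 on the hypomorph arrays, against 189 and 282 on the control arrays, a log2 change of 0.56 (adjusted p = 0.242, limma), and Ppargc1b was lowest at -0.11. Mitophagy genes had a relative median of -0.07 over 7 genes, with Fundc1, a receptor on the outer membrane, highest at 0.42 and Bnip3 lowest at 0.07. None of the genes in these lists was called after adjustment in limma.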

How the data were processed

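Members, gene lists and tests were chosen with earlier results of these data known. The deposited values are linear intensity signals, 1 per probe set; the submitters' processing notes name GCOS (Affymetrix), with version and scaling not given in the sources used here. RNA was isolated with a Qiagen kit and labelled with biotin, per the labels' protocols.

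Of 45101 probe sets, 64 controls were left out, and of the 45037 kept 34945 carried 1 symbol, 932 several and 9160 none. Values were analysed as log2(signal + 2.29), the 10th percentile, which understates changes of dim genes, with arrays centred on a common median. The 22519 probe sets at or above the median of the mean log2 values (10232 genes) went into limma 3.58.1 under R 4.3.3 (variance trend, two-sided, Benjamini-Hochberg over all of them, threshold 0.05), which called 11 higher and 3 lower. Sex could not be a covariate. With 2 arrays a group, p-values rest on the variance model. On simulated data recovery was 5% for 1.5-fold changes, 48.7% for 2-fold ones and 95.9% for 4-fold ones (200 of 22519 probe sets changed, 20 simulations, 4.89% of calls false). The simulated arrays had independent noise and no shift over all genes, so these rates may not hold for the real arrays. The genes named are those past the threshold, complex II and Cycs, the 3 highest and 3 lowest of each other complex, isoforms, chromosome 1 members, genes with opposed probe sets, and the highest and lowest of each list; Ndufa4, Ndufv2, Uqcrh, Uqcr10, Ndufb8, Ndufb4, Ndufa4l2 and Ndufs8 were added after their values were seen. Alternatives covered normalization, pseudocount, filter, variance model, probe set choice, replicate block and leaving out each array. Promoters came from RefSeq.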

Additional observations from a re-analysis of the deposited data

How the results depend on the processing

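Over 16 alternatives the count of members called after adjustment stayed at 0, except without hypomorph replicate 1, where it was 2 (Atp5md with adjusted p = 0.0440 and Sdhc with 0.0489, limma), a range of 0 to 2 over the fits that each leave out 1 array. There the lone array of a group is assumed to vary like the other group. Members higher at an unadjusted p under 0.05, 23 in the report, were 5 with quantile normalization (3.42% of all genes), 5 with cyclic loess (3.47%), 5 with centring on the tested probe sets (4.38%), 37 without centring (19.3%), 35 with the pseudocount at the 25th percentile (24.2%) and 6 without the variance trend (10.3%). They ranged from 4 without control replicate 1 to 40 without hypomorph replicate 1, with 10 without hypomorph replicate 2. Quantile, loess and tested-set centring bring the median change of tested genes to 0.02, 0.02 and 0.04, and Sdhc, Ndufb2 and Cox6b2 were among the 5 members in each. Members lower numbered 1, Ndufa10, with the mean of all probe sets of a gene. That mean gives equal weight to its probe set too dim to test, while its brightest probe set had a positive log2 change.

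Without the filter the relative medians were 0.095 for members, 0.13 for complex I, 0.12 for complex III and 0.067 for complex V. Quantile normalization gave 0.033 for complex I, and the mean of all probe sets gave 0.12 for complex III and 0.053 for complex IV. Leaving out 1 array gave 0.02 to 0.06 for members, 0.06 to 0.09 for complex I, 0.08 to 0.21 for complex II, 0.01 to 0.10 for complex III, -0.13 to -0.02 for complex IV and -0.10 (without hypomorph replicate 2) to 0.017 for complex V. The causes were not tested.

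The deviations of same-numbered arrays had a correlation of 0.08. With 2 arrays a group this single value cannot tell whether such arrays share more than a number. With the replicate number as a block 26 members were higher at an unadjusted p under 0.05 (19.3% of all genes) and 0 were called. Of 619 values of named genes under the alternatives, 585 moved by less than the spread between replicates, and 22 of 39 genes kept the sign of their relative change throughout. With 2 arrays a group, changes under 2-fold were mostly below what the fit recovered on simulated data, which held no shift over all genes.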
